A study of Mus musculus with 4 samples.

Results

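Pax7 peaks at CpG-poor coding promoters are the 844 peaks, of 20579 in the deposited list, whose summit lay within 1 kb of the transcription start site (TSS) of a protein-coding transcript and whose sequence 250 bp to either side of the summit had an observed-to-expected CpG ratio below 0.6. The ratio is the number of CpG dinucleotides times the window length, divided by the product of the C and G counts. The remaining 2028 peaks within 1 kb of a coding TSS were CpG-rich by the same measure, and 17148 further CpG-poor peaks lay elsewhere. The cells were iPax7 myogenic progenitors, made from mouse embryonic stem cells that carry 1 doxycycline-inducible Pax7 transgene. Doxycycline (Dox, 1 µg/ml) was added on day 3 of differentiation for 6 days, PDGFRα+FLK1- cells were sorted on day 5, and cells were harvested on day 9. The series holds 2 Pax7 ChIP-seq libraries and 2 input libraries, all of them from cells kept in Dox, so there is no condition without Pax7 to compare with. The transgene, not the endogenous gene, is the intended source of Pax7 in these cells. Peaks were called once on the merged libraries, so a peak has 1 value and no replicate error, and the list gives no read counts behind it. No expression was measured here, so the cell type could not be checked against its markers.

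Most mammalian promoters fall into a CpG-rich class, which lies in CpG islands that usually escape DNA methylation, and a CpG-poor class, which is typical of genes with tissue-restricted expression. Pax7 is a transcription factor of muscle stem cells with a pair of DNA-binding domains. The paired domain recognises a site that contains the letters GTCACG, whereas the homeodomain recognises TAAT sites, singly or as a dimer. E-boxes are bound by myogenic regulatory factors such as MyoD and myogenin, and Tead factors bind GGAATG in many muscle promoters.

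The sequences below run from 50 bp left to 50 bp right of the summit (mm9, plus strand, 5′ to 3′). The first set holds the paired-box core GTCACG, in capitals on either strand, at peaks of the highest fold enrichment and at genes of the lists described further on.
Arpp21, chr9:112089508-112089608: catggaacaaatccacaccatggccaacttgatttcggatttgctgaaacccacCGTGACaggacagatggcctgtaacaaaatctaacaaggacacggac
Trim26, chr17:36973848-36973948: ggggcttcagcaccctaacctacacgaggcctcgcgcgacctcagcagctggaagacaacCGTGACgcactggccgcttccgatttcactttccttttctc
Mterfd3, chr10:84590829-84590929: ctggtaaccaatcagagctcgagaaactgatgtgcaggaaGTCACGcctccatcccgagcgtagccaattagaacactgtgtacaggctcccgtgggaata
Lmod1, chr1:137221192-137221292: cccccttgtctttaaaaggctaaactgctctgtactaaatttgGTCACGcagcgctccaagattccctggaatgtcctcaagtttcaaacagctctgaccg
Slc35a2, chrX:7460895-7460995: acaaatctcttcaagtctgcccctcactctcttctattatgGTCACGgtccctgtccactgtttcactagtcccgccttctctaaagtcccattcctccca
Cd59b, chr2:103910693-103910793: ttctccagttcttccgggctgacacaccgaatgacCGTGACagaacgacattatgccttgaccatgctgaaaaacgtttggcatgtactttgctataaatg
Cd22, chr7:31665407-31665507: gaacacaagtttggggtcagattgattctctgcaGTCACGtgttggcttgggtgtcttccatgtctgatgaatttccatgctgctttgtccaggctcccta

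The second set shows the rarer Pax sites. In Inpp4b and Chka the capitals mark ATTAGTCA, a composite of a homeodomain site and the first letters of the paired-box core, on either strand. In Fbxl20 they mark the homeodomain dimer, which is TAAT, 2 bases of any kind, and ATTA. The Myf5 sequence holds none of these sites and its capitals mark an E-box, CAGCTG. It is shown because Myf5 is the myogenic regulator with the highest value.
Inpp4b, chr8:84264753-84264853: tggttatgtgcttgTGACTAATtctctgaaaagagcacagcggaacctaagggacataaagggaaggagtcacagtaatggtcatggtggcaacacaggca
Chka, chr19:3850913-3851013: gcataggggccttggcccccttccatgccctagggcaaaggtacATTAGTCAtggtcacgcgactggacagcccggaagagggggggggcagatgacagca
Fbxl20, chr11:97991663-97991763: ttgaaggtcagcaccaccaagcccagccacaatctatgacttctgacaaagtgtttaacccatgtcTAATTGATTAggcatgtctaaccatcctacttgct
Myf5, chr10:106924032-106924132: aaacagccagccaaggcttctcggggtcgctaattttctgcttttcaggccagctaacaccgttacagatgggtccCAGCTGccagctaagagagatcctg

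The CpG-poor promoter peaks were spread widely around the TSS. Their summits lay a median of 392 bp from the nearest coding TSS, against 109 bp for CpG-rich promoter peaks. Of the 844 peaks, 149 (17.7%) lay within 100 bp of the TSS, whereas 962 of 2028 CpG-rich peaks (47.4%) did. The difference was -29.8 percentage points, with a Newcombe 95% interval from -33.0 to -26.3. Class and distance are not independent under the rule, since the window of a summit close to a CpG-rich TSS takes in that CpG-rich sequence. Within 100 bp lay 26.8% of the CpG-poor peaks whose nearest TSS was CpG-poor and 5.07% of those whose nearest TSS was CpG-rich. The part of the rule in the difference was not tested. Upstream positions made up 61.5% of the CpG-poor peaks (519 of 844, Wilson 95% interval 58.2 to 64.7) and 67.9% of the CpG-rich peaks, a difference of -6.41 points (-10.3 to -2.58). The fullest 100-bp bin was the one from 200 to 100 bp upstream, with 95 peaks, followed by the 100 bp directly upstream with 85 and the first 100 bp downstream with 64. Beyond 500 bp there were still 332 peaks (39.3%), compared with 9.32% of CpG-rich promoter peaks. These intervals, and those that follow, cover counting error over peaks only, and peaks of 1 list are not independent replicates.

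**Figure D1:**
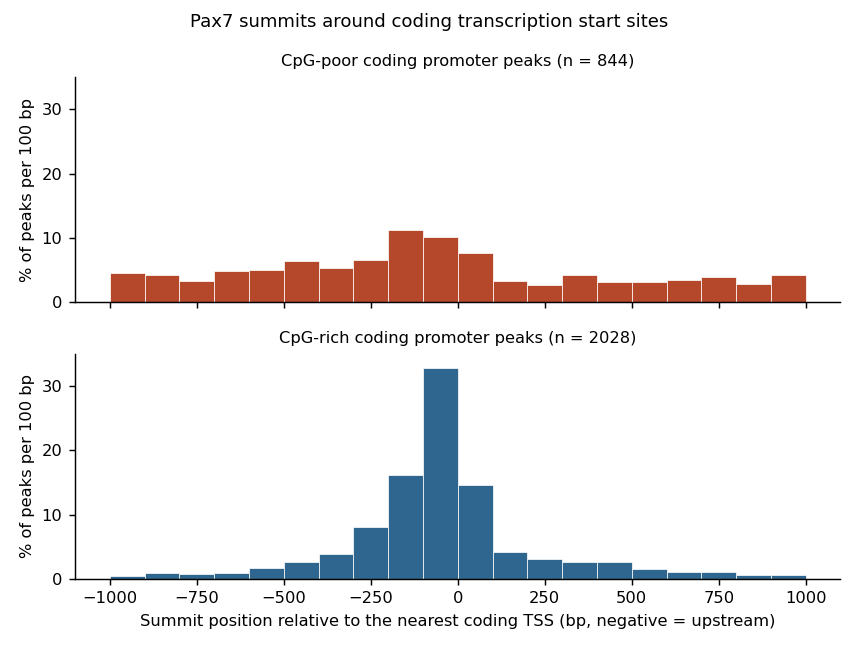
Percent of Pax7 summits in each 100-bp bin around the nearest coding TSS (x axis in bp, negative values upstream), for 844 CpG-poor peaks (top) and 2028 CpG-rich peaks (bottom). The CpG-rich peaks pile up in the 100 bp upstream of the TSS (32.8%), and no bin of the CpG-poor peaks exceeds 11.3%.

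The position within the gene differed from that of CpG-rich promoter peaks. Introns of coding transcripts held 374 of the CpG-poor promoter summits (44.3%), and 339 (40.2%) lay outside coding transcripts. Untranslated exons held 100 (11.8%) and coding exons 31 (3.67%). For CpG-rich promoter peaks the corresponding shares were 17.2% for introns, 55.6% outside, 23.0% for untranslated exons and 4.19% for coding exons. The intron share was close to that of all peaks (45.1%), and it was 48.9% at CpG-poor peaks elsewhere. Outside coding transcripts lay 49.4% and 48.8% of these, in the same order. Internal starts of longer genes count as coding TSSs here. When only the 5′-most coding TSS of each gene was used, an alternative added after the data were seen, 585 peaks met the rule.

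The low CpG ratio at the summit did not always mean a CpG-poor start site. The nearest TSS itself had a ratio below 0.6 in 489 of the 844 peaks (57.9%, Wilson 54.6 to 61.2). In the other 355 the summit lay in CpG-poor sequence beside a CpG-rich TSS. The latter were further from the TSS, with a median distance of 535 bp against 261 bp. Their median fold enrichment was the same, 4.88 in both sets, and the share of peaks at 5-fold or more was 45.8% beside CpG-poor and 47.6% beside CpG-rich start sites, a difference of -1.80 points (-8.58 to 4.99).

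Viewed from the start sites, CpG-poor promoters were seldom occupied. Of 23623 CpG-poor coding TSSs, 952 had a Pax7 summit of any class within 1 kb (4.03%, Wilson 3.79 to 4.29). Of 22324 CpG-rich TSSs, 4542 did (20.3%, 19.8 to 20.9). The difference was -16.3 points (-16.9 to -15.7). Alternative and neighbouring TSSs can share 1 summit, so TSSs are not independent and these intervals are likely too narrow. The median GC content of the same windows was 49.9% at CpG-poor and 65.7% at CpG-rich TSSs, and the part of GC content in this difference was not tested. By gene, 855 of 22365 coding genes had a CpG-poor promoter peak, and 111 of these also had a CpG-rich one (13.0%). Of all 22365 coding genes, 2214 had a CpG-rich promoter peak (9.90%). A single gene had its TSS within 1 kb of 793 of the peaks, and 51 peaks lay near the starts of several genes.

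The fold enrichment, the value MACS2 gives for ChIP reads at the summit over the local background, was lower at CpG-poor promoters than at CpG-poor sequence elsewhere. It ranged from 2.37 to 22.0, with quartiles at 4.08, 4.88 and 6.10. The median was 4.99 for CpG-rich promoter peaks, 5.23 for CpG-poor peaks away from promoters, and 5.22 for all peaks. Of the 844 peaks, 393 were enriched at least 5-fold (46.6%, Wilson 43.2 to 49.9), whereas 54.9% of all peaks were. The difference from CpG-rich promoter peaks was -3.24 points, with an interval that included 0 (-7.23 to 0.77), and the difference from CpG-poor peaks away from promoters was -9.45 points (-12.9 to -5.99). At least 10-fold enrichment was seen in 35 peaks (4.15%), against 6.99% of all peaks, 6.16% of CpG-rich promoter peaks and 7.23% of CpG-poor peaks elsewhere. The interval of the difference from CpG-rich promoter peaks at this level was -3.63 to -0.18 points. Across all 2872 promoter peaks the CpG ratio and the fold enrichment had a Spearman rho of 0.02, a description over peaks of 1 list.

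**Figure D2:**
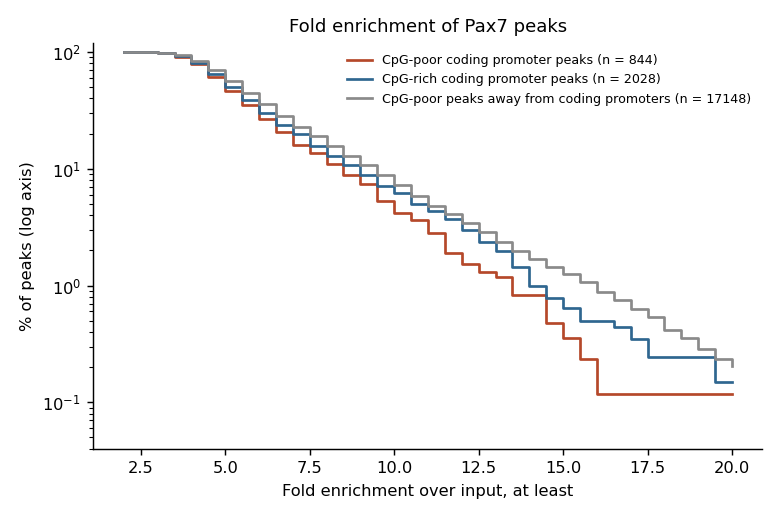
Percent of peaks (log axis) whose fold enrichment over input was at least the value on the x axis, for CpG-poor promoter peaks, CpG-rich promoter peaks and CpG-poor peaks away from promoters. The CpG-poor promoter curve lies lowest at 10-fold, with 4.15% of peaks against 6.16% and 7.23%.

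Both limits of the rule cut through continuous values. Just inside the ratio of 0.6 lay peaks near 9830001H06Rik (ratio 0.5987, 3.84-fold), Bcl7a (0.5995, 4.29-fold) and Tmem184c (0.5996, 5.76-fold). Just outside lay Dem1 (0.60003, 6.45-fold) and Esrra (0.6005, 3.29-fold). At the 1 kb limit, Cwc25 and Parp1 (both 995 bp, 5.62-fold and 4.41-fold) and Rasa3 (1000 bp, 4.56-fold) were inside, and Gm11435 and Tctn2 (both 1 bp beyond it, 8.56-fold and 5.02-fold) and A530098C11Rik (1005 bp, 6.28-fold) were outside.

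The paired-box core was the motif with the clearest position at the summit. It was present within 50 bp of 123 of the 844 summits (14.6%, Wilson 12.4 to 17.1), as shown above for Arpp21 and Mterfd3, and in a window of equal width 200 bp to the right in 13 (1.54%). Of the peaks with the core in 1 window only, 121 had it at the summit and 11 in the flank (McNemar's exact test, two-sided, Benjamini-Hochberg adjusted over 10 motifs, p = 1.4e-23). A permutation of the same letters that keeps a CpG, GACTCG, was at 1.90% of summits and 1.66% of flanks (adjusted p = 0.92, exact test). The core was more frequent at CpG-rich promoter summits (21.5%), a difference of -6.97 points (-9.86 to -3.90), and less frequent at CpG-poor summits away from promoters (9.47%), a difference of 5.10 points (2.84 to 7.68). It contains a CpG, which the rule limits, and the control GACTCG had the same order, with 4.14% at CpG-rich promoters, 1.90% at CpG-poor promoters and 1.13% elsewhere. Over all peaks 11.1% had the core.

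Where present, the core lay close to the summit and was followed by C or G. The median distance of the nearest core was 18.5 bp, and 78 of 123 peaks (63.4%) had it within 25 bp. Of the 124 cores in these windows, 108 (87.1%, Wilson 80.1 to 91.9) had C or G as the next base. At CpG-rich promoters the share was 84.1% (80.4 to 87.1) and at CpG-poor peaks elsewhere 89.8% (88.3 to 91.1). In contrast, 313 of 614 cores in the flanks of all peaks (51.0%, 47.0 to 54.9) were followed by C or G. The base after that was T in 43.1% of the 123 nearest cores. It was T in 51.2% at CpG-poor peaks elsewhere and in 31.4% at CpG-rich promoters, where C was more frequent (41.2%). Among the sequences above, the core at Arpp21 is followed by G and that at Mterfd3 by C, read along the core, whereas that at Cd22 is followed by T. The core had no fixed orientation, since 66 of 123 (53.7%, Wilson 44.9 to 62.2) pointed along the direction of transcription.

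Peaks with the core had higher values. Their median fold enrichment was 5.44 (123 peaks), against 4.80 for those without (721 peaks). At least 5-fold enrichment was found in 60.2% of the former and 44.2% of the latter, a difference of 15.9 points (6.36 to 24.9). No such difference was detected for the E-box (4.97 points, -4.51 to 14.4), the Tead motif (3.90 points, -6.37 to 14.1), the CCAAT box (-0.22 points, -8.54 to 8.23) or the control GCACTG (-0.44 points, -12.5 to 12). These intervals are wide and each includes differences of several points in both directions. Higher values with the core were not particular to CpG-poor promoters. At CpG-rich promoters the medians were 5.56-fold with and 4.88-fold without it, and the difference at 5-fold was 17.0 points (11.8 to 22.0). At CpG-poor peaks elsewhere that difference was 8.73 points (6.24 to 11.2).

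The sites that involve the homeodomain were rare. The composite ATTAGTCA was at 15 summits (1.78%) and 1 right flank (adjusted p = 0.00104, exact McNemar's test). The homeodomain dimer was at 6 summits (0.71%) and 1 right flank, a difference that did not pass the test (adjusted p = 0.16, exact). The composite was more frequent than at CpG-rich promoters (0.49%, difference 1.28 points, 0.47 to 2.44) and less frequent than at CpG-poor peaks elsewhere (3.36%, difference -1.58 points, -2.33 to -0.42). The composite shares its last letters with the paired-box core and contains the whole core when CG follows. The highest values among peaks with either site were 9.07-fold at Inpp4b, a phosphoinositide phosphatase gene, 7.44-fold at Cyp20a1, a cytochrome P450 gene, 7.32-fold at Chka, which encodes choline kinase alpha, 6.54-fold at Zmynd8 and 6.45-fold at Fbxl20. The Chka summit held the composite and, as printed above, a separate core 2 bases further on. In all, 703 of 844 peaks (83.3%) had none of these 3 Pax motifs within 50 bp. The same held for 85.5% of all peaks, 78.1% of CpG-rich promoter peaks and 86.7% of CpG-poor peaks elsewhere.

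Motifs of other factors also differed in frequency between CpG-poor and CpG-rich promoter summits. The E-box CAGCTG was at 122 summits (14.5%) and 58 flanks (6.87%, adjusted p = 1.75e-06), the Tead motif GGAATG at 100 (11.8%) and 42 (4.98%, adjusted p = 1.75e-06), and the CCAAT box at 166 (19.7%) and 95 (11.3%, adjusted p = 1.75e-06), all by McNemar's exact test. Runx (TGTGGT, 6.75% and 6.52%, adjusted p = 0.92) and AP-1 (TGANTCA, 4.38% and 2.73%, adjusted p = 0.12) did not pass the exact test. The control GCACTG was at 7.70% of summits and 5.21% of flanks (adjusted p = 0.077, exact test). At CpG-rich promoters the E-box was at 5.62% of summits and 3.85% of flanks (adjusted p = 0.026, exact test) and Tead at 4.68% and 4.19% (adjusted p = 0.62, exact test). The E-box was more frequent at CpG-poor than at CpG-rich promoter summits by 8.83 points (6.37 to 11.5), and Tead by 7.16 points (4.92 to 9.66), whereas GCACTG differed by 0.995 points (-0.999 to 3.23). Runx and AP-1, which did not pass against their flanks, were also more frequent than at CpG-rich summits. Their differences were 2.91 points (1.14 to 4.95) and 2.56 points (1.19 to 4.24). The CCAAT box and GACTCG were less frequent, by differences of -3.70 points (-6.87 to -0.37) and -2.25 points (-3.45 to -0.84). Compared with CpG-poor peaks away from promoters, Tead differed by 0.05 points (-2.02 to 2.45) and the E-box by -2.74 points (-5.03 to -0.15), while Runx and AP-1 were lower by intervals of -5.57 to -2.04 and -4.53 to -1.63 points. The median GC content was 49.5% at CpG-poor promoter peaks, 59.7% at CpG-rich ones and 44.3% at CpG-poor peaks elsewhere, and its part in these shares was not tested.

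**Figure D3:**
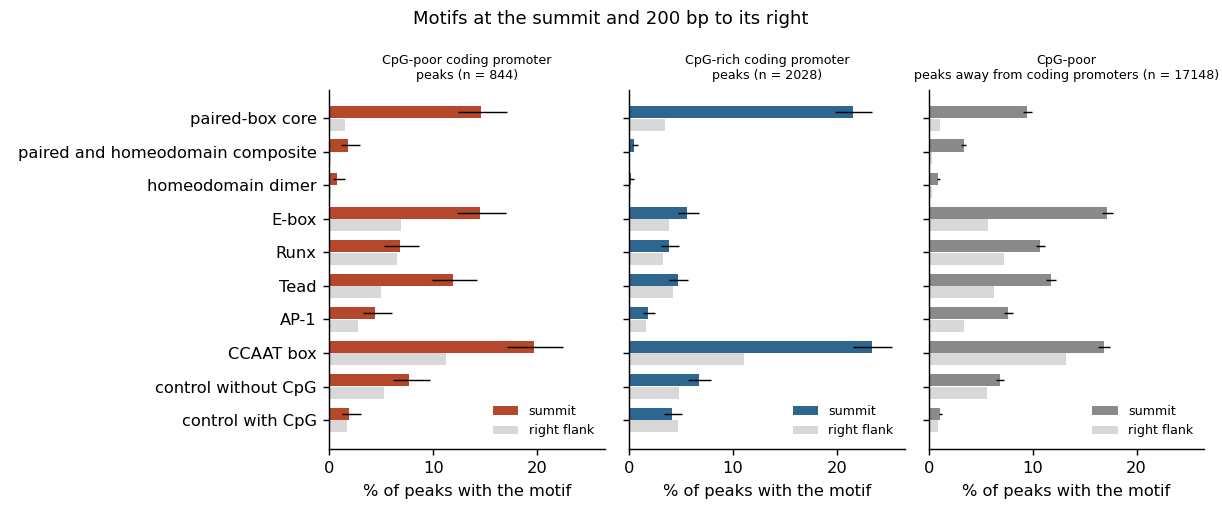
Percent of peaks with each of 10 motifs within 50 bp of the summit (coloured bars, with Wilson 95% intervals) and in the window 200 bp to the right (grey bars), for the 3 sets of peaks. E-box and Tead rise above their flank at CpG-poor promoters, 14.5% and 11.8% of summits, and stand at 5.62% and 4.68% of CpG-rich summits.

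The E-box also differed within the CpG-poor promoter peaks. It was at 17.6% of summits beside a CpG-poor TSS (86 of 489) and 10.1% beside a CpG-rich TSS (36 of 355), a difference of 7.45 points (2.70 to 12). In the flanks it was at 7.16% and 6.48%. The CCAAT box went the other way, with 17.2% and 23.1% (-5.92 points, -11.5 to -0.48). The paired-box core was at 14.9% and 14.1% (0.84 points, -4.09 to 5.56). The control GACTCG, at 14 and 2 summits, also differed (2.86% and 0.56%, 2.3 points, 0.44 to 4.23). The E-box and the core were together at 12 summits (1.42%), as were the E-box and Tead. Over all peaks these shares were 1.44% and 1.52%.

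**Figure D4:**
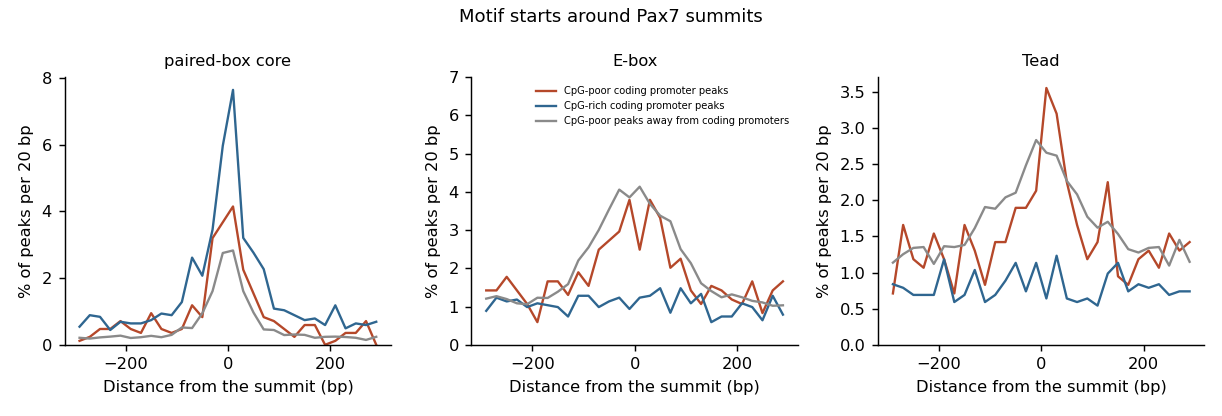
Percent of peaks with the paired-box core, E-box or Tead motif in each 20-bp bin from 300 bp left to 300 bp right of the summit, for the 3 sets. The core peaks within 20 bp of the summit in all sets (4.15% in the bin centred at 10 bp for CpG-poor promoters, 7.64% for CpG-rich), and the E-box and Tead curves have no such peak at CpG-rich promoters.

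The highest values came from genes of varied function. The first was Arpp21, a cAMP-regulated phosphoprotein gene, at 22.0-fold with a −log10 q of 146, in an intron 672 bp downstream of a TSS and above 99.9% of all peaks. 1700034J04Rik (15.7-fold, 443 bp downstream) and Adck3, a coenzyme Q biosynthesis gene (15.2-fold, 606 bp downstream), came next. Trmt1, a tRNA methyltransferase gene, had 14.7-fold enrichment 52 bp downstream in a coding exon. Trim26, a ubiquitin ligase gene, had 14.3-fold enrichment 190 bp upstream. Scn2a1, a voltage-gated sodium channel gene, had 14.1-fold enrichment 906 bp upstream, and Mterfd3, of the mitochondrial transcription termination factor family, 14.0-fold 133 bp upstream. Id3, an inhibitor of the basic helix-loop-helix factors that bind E-boxes, had 13.2-fold enrichment 131 bp upstream of its TSS. The summit at Anxa5, which encodes a calcium-dependent phospholipid-binding protein, fell on the TSS with 13.2-fold. Grip1, a scaffold protein gene, had 13.1-fold enrichment in an intron. Of these 10 summits, those at Arpp21, Trmt1, Trim26 and Mterfd3 held the paired-box core.

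Among myogenic regulators, 4 of 50 genes had a CpG-poor promoter peak (8.00%), where 3.82% of all coding genes had one. This share rests on 4 genes, and its distance from 3.82% was not tested. A CpG-rich promoter peak was present at 5 of the 50 (10%), beside 9.90% of all coding genes. Myf5, the first myogenic regulatory factor expressed in the embryo, had 6.32-fold enrichment 892 bp upstream (chr10:106923933-106924199) at a summit with an E-box and no Pax motif. Myog, which drives terminal differentiation, had 4.56-fold enrichment upstream of its TSS (chr1:136186234-136186593). Meox1, a somite homeobox gene, had 4.32-fold and Mef2c, a partner of myogenic factors, 4.16-fold. Of these 4 genes, Myf5 alone exceeded the median of the CpG-poor promoter peaks.

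Genes of the sarcomere and contraction had such a peak in 8 of 79 cases (10.1%, beside 3.82% of all coding genes). A CpG-rich promoter peak was present at 3 of the 79 (3.80%, beside 9.90% of all coding genes). Nearly all genes of this list, 74 of 79, have a CpG-poor TSS, and of all 14318 coding genes with such a TSS 592 had a peak of this kind (4.13%). Pgam2, the muscle phosphoglycerate mutase, had the highest value, 10.8-fold, 53 bp downstream of its TSS in a coding exon. Myh3, the embryonic myosin heavy chain, had 7.10-fold enrichment 768 bp upstream, and Myl1, a fast-muscle myosin light chain, 6.84-fold 117 bp downstream. Summits at Pgam2 and Myl1 held an E-box. The others, between 3.36 and 5.39-fold, were Tnnt1, Nrap, Pygm, Ttn and Xirp2. In the cardiac and smooth muscle list, 2 of 28 genes had a peak (7.14%), a share that rests on 2 genes. Lmod1, an actin nucleator of smooth muscle, had 10.2-fold enrichment 142 bp upstream at a summit with both the paired-box core and the Tead motif, and Synpo2, an actin-binding protein gene, 5.02-fold with the core.

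Extracellular matrix genes had a peak in 7 of 123 cases (5.69%), led by Lama2, the laminin chain of the muscle basement membrane, at 7.67-fold, Col28a1 at 6.40-fold and Adamtsl4 at 6.10-fold. Secreted growth factors had 3 of 81 (3.70%), namely Vegfa (4.88-fold), Tgfb3 (3.97-fold) and Tgfb2 (2.98-fold). Adhesion and guidance genes had 6 of 142 (4.23%), with at most 4.88-fold at Itgb5, followed by Epha1 and Ephb3 (both 4.71-fold). Homeobox, Fox, Sox and T-box factors had 5 of 150 (3.33%), led by Lhx6 (8.09-fold, with the core), Hoxb6 (7.15-fold) and Foxp2 (6.23-fold).

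Lists of other lineages and functions had shares on both sides of the 3.82% of all coding genes. The shares of the endothelial, neural and epithelial lists rest on 1 to 3 genes each, and their distance from 3.82% was not tested. Endothelial and blood markers had 2 of 28 (7.14%), Pecam1 at 10.8-fold and Eng at 4.27-fold. The Pecam1 summit lay 664 bp from the Pecam1 TSS but in a coding exon of Gm885, 24 bp from the TSS of that gene. Neural markers had 1 of 26 (3.85%), Snap25 at 6.28-fold. Epithelial markers and keratins had 3 of 63 (4.76%), namely the desmosomal gene Dsp at 11.03-fold, Esrp1 at 5.93-fold and Krt23 at 4.71-fold. Chemokines, interleukins and CD antigens had 4 of 152 (2.63%), with Cd59b at 8.37-fold, Cd22 at 6.08-fold and Cd164 at 5.73-fold. Ion channel genes had 5 of 164 (3.05%), with Scn3b at 10.7-fold and Clcn3 at 4.80-fold among them, and solute carriers 12 of 345 (3.48%), with Slc35a2 at 8.54-fold, Slc35b2 at 8.00-fold and Slc25a17 at 7.58-fold. None of 20 pluripotency genes had a CpG-poor promoter peak, and at a share of 3.82% a list this short may hold none. Olfactory and vomeronasal receptors, 1420 of 1421 of which have a CpG-poor TSS, had 1, Olfr229 at 5.05-fold (0.07%). Cytosolic ribosomal protein genes had 4 of 79 (5.06%), Rpl27 (6.84-fold), Rpl23 (5.55-fold), Rpl15 (5.23-fold, in an intron of Nkiras1) and Rps25 (3.24-fold, nearer to the TSS of Trappc4). Of the same 79 genes, 23 had a CpG-rich promoter peak (29.1%, beside 9.90% of all coding genes).

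**Figure D5:**
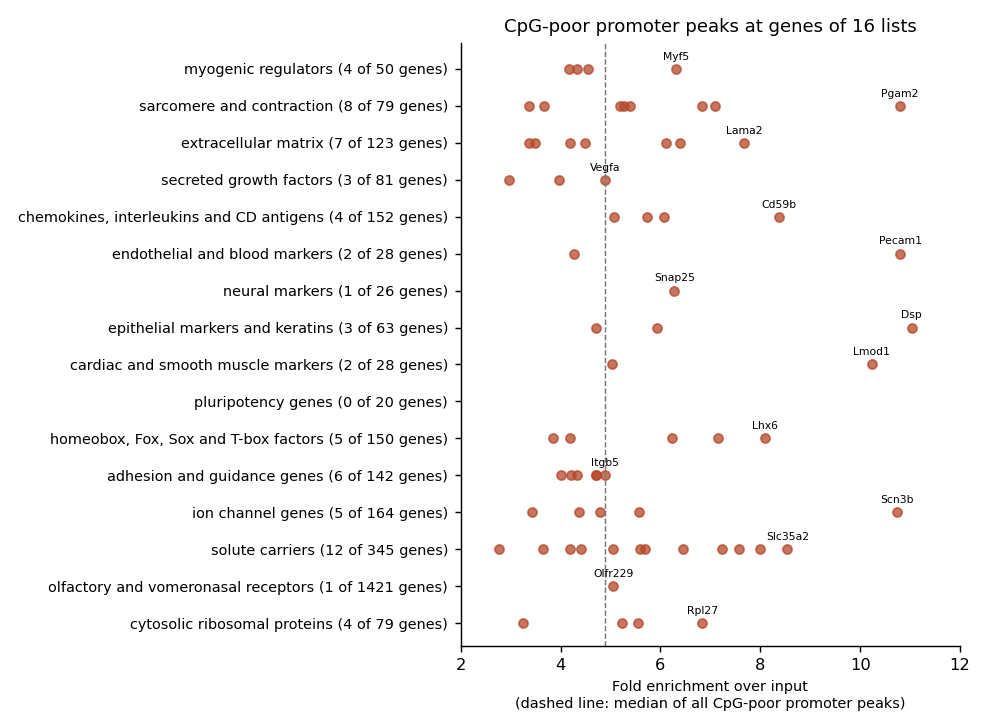
Fold enrichment (x axis) of each CpG-poor promoter peak at a gene of 16 lists (rows, with the number of genes that had a peak), each point 1 peak, with the highest of each list named. The dashed line marks the median of all CpG-poor promoter peaks, 4.88, and points lie on both sides of it in several lists.

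Several genes had more than 1 CpG-poor promoter peak. Txnrd1, the cytosolic thioredoxin reductase, had 3, at 5.92, 4.61 and 4.16-fold, and the first held both the composite and the homeodomain dimer. Among genes with 2, the highest sums were at Nav3 (12.5 and 10.6-fold, summits 936 bp apart), Hes3, a Notch pathway repressor (8.63 and 8.36-fold), Pde4d, a cAMP phosphodiesterase (9.18 and 7.56-fold), Sorbs2, a sarcomere-associated adaptor (11.3 and 4.80-fold), and Ltbp1, which binds latent TGF-β (8.19 and 7.83-fold, 546 bp apart). The pairs at Pde4d and Sorbs2 lay at different starts of 1 gene, 372969 and 135519 bp apart.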

How the data were processed

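Analysed was 1 list of Pax7 peaks that came from 2 ChIP libraries and the same number of inputs. Per the methods, single-end reads were mapped to mm9 (NCBIM37) by bowtie2, reads with several alignments and PCR duplicates (Picard) were discarded, and MACS2 was run once on the pooled replicates. The authors deposited the fold enrichment as a ratio of ChIP to local background. The deposited −log10 q values (lowest 2.07) and the deposited score were used only to describe or filter peaks. Read depth was not used, since the list holds no read counts.

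Summits were placed on NCBIM37 with GENCODE protein-coding transcripts as annotation (1-based). Motifs were searched on both strands, with the whole match within 50 bp of the summit, and compared with a window 200 bp to the right in the same peak by McNemar's exact test. Shares have Wilson and differences Newcombe 95% intervals. On simulated sets of 800 peaks, the test of the core passed in 2 of 2 sets with a planted core and 0 of 3 without. The simulated bases were drawn independently with no shortage of CpG, so this did not check the test on CpG-poor sequence. Named peaks were the 10 with the highest fold enrichment, the 3 highest of each of 16 gene lists, those with composite or dimer (5 highest), genes with several peaks and those at the limits of the rule, of which 2 are not reported here. The peaks, lists and tests were chosen with earlier results of these data known. A gene had a peak when any of its coding TSSs lay within 1 kb of the summit. Further genes of the shorter lists and the Myf5 sequence were added after their values were seen. Sequences that overlap untranslated exons were left out. Python 3.11.15, numpy 2.4.6, pandas 2.3.3 and scipy 1.17.1 were used.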

Additional observations from a re-analysis of the deposited data

How the results depend on the processing

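No paired analysis was possible because the replicates were merged before peak calling and the peak list analysed here has no values per replicate. Of 108 recomputed values, 88 kept their direction and call, stayed within the interval of the reported value or, for the number of peaks, within 1.5 times of it, 20 moved, and none reversed or changed a call. The number of peaks was 603 and 1199 with CpG ratio limits of 0.5 and 0.7, 585 with the 5′-most TSS of each gene, 512 within 500 bp of a TSS, 1345 within 2 kb and 393 at 5-fold or more. Among peaks with −log10 q ≥ 5, the median fold enrichment was 5.07 and 52.6% of peaks reached 5-fold. The share with the paired-box core was 17.4% within 500 bp of a TSS, 18.8% at 5-fold or more, and 8.65% and 18.1% with motif windows of 25 and 100 bp. Upstream peaks made up 65.2% within 500 bp and 53.2% within 2 kb. The share of CpG-poor TSSs with a summit was 3.14% and 5.45% with CpG ratio limits of 0.5 and 0.7, 4.34% and 4.30% with the ratio taken over 100 and 500 bp to either side, 2.59% and 5.94% within 500 bp and 2 kb, 3.64% for peaks with −log10 q ≥ 5, 1.99% at 5-fold or more, and 3.03% with the 5′-most TSS of each gene, an alternative added after seeing the data. The homeodomain dimer, present at 6 summits, passed the test under no alternative. The list limits all values to peaks that passed the authors' threshold, and occupancy below it was not detectable here.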

Other observations

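Some CpG-poor promoter peaks had a further Pax7 peak nearby. Another summit lay within 5 kb of 227 of the 844 (26.9%, Wilson 24 to 30.0), against 23.8% (23.2 to 24.4) of all peaks. The share was 22.1% (20.3 to 23.9) of CpG-rich promoter peaks and 23.6% (22.9 to 24.2) of CpG-poor peaks elsewhere. No other summit within 50 kb was found for 236 (28%), against 25.7% of all peaks. For CpG-rich promoter peaks this share was 28.5%, and for CpG-poor peaks elsewhere 25.3%. A TATA box (TATAAA from 40 to 20 bp upstream) was found at 20 of 952 CpG-poor TSSs with a Pax7 summit (2.1%) and at 531 of 22671 without (2.34%), a difference of -0.24 points (Newcombe -1.01 to 0.90).

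The study sorted genes linked to Pax7-bound enhancers into groups by their expression. It took active enhancers from outside promoters, more than 1 kb from a TSS, so the promoter peaks counted here were not what defined the groups. The groups still rest on the same Pax7 data, so their counts are not independent evidence. A CpG-poor promoter peak was present at 56 of 401 Active I genes (14.0%, Wilson 10.9 to 17.7), 40 of 482 Active II genes (8.30%, 6.15 to 11.1), 22 of 442 Active III genes (4.98%, 3.31 to 7.42) and 31 of 365 Primed genes (8.49%, 6.05 to 11.8), beside 3.82% of all coding genes. The highest in Active I was Socs5, a suppressor of cytokine signalling (11.7-fold), in Active II Arpp21 (22.0-fold), in Active III Parp4 (9.41-fold) and in Primed Fbxw7, a ubiquitin ligase subunit (9.24-fold).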
